A study of Rattus norvegicus with 9 samples.

Results

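The circadian clock was followed through 10 of its genes in rat hearts after myocardial infarction: Arntl, Clock, Npas2, Per1, Per2, Per3, Cry2, Nr1d1, Nr1d2 and Dbp. They were taken by gene symbol from a table of 35843 genes, and all 10 of the 10 symbols were found in it.

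The hearts came from male Sprague-Dawley (SD) rats in 3 groups of 3, taken on day 28. Sham rats were operated without tying a coronary artery, MI rats had the left anterior descending artery (LAD) tied for good, and both groups received saline by gavage. MI + DAPA rats had the same ligation and received dapagliflozin (DAPA), an inhibitor of the renal sodium-glucose cotransporter SGLT2, at 1 mg/kg a day by gavage from the first day. RNA of the left ventricle was sequenced after poly(A) selection. For the sequencing the paper names normal myocardium in Sham and infarct myocardium in the other groups. For molecular work in general the study mainly used the border of the infarct, and the matching part of the heart in Sham rats. Each sample label lists a pair of numbered names (such as Sham1-1 and Sham1-2) and does not say what the pair stands for. The labels give the day and no hour of sampling. In bulk tissue, fewer cells of a type and less RNA per cell cannot be told apart.

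The clock is a feedback loop that runs in nearly every cell, cardiomyocytes included. The proteins of Arntl (BMAL1) and Clock pair up and switch on genes that carry E-boxes, among them the Per and Cry genes, Nr1d1 and Nr1d2 (REV-ERB alpha and beta) and Dbp. Npas2 can take the place of Clock. PER and CRY proteins return to the nucleus and shut off BMAL1:CLOCK, while the REV-ERB proteins repress Arntl, Npas2 and Clock through ROR elements. Dbp encodes a transcription factor that acts on D-boxes. In the hearts of rodents kept in a light-dark cycle, Arntl and Npas2 therefore peak at about the opposite time of day to Dbp and Nr1d1, with the Per genes following after Nr1d1. Levels of these genes in 1 heart thus depend on the hour at which it was taken, in healthy animals too.

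The libraries held 13597239 to 17210909 reads, recovered as whole reads from the deposited values. The mitochondrial genome took 61.1% to 66.9% of these reads in Sham rats, 7.07% to 19.1% in MI rats and 17.5% to 32.0% in MI + DAPA rats. Between 5702454 and 6570698 reads were thus left for nuclear genes in Sham rats, against 11440726 to 13171891 in the other groups, so Sham values rest on fewer reads. Members had 26 to 6289 reads a rat. Among the clock genes, Sham replicate 2 stood apart from its group, and the counts and the results that it decides are also given without it. For all 10 members it was the highest or the lowest of the 3 Sham rats, a place it held for 70.6% of the 14157 genes examined. Such a place alone was common. MI replicate 2 and MI + DAPA replicates 2 and 3 each held it in their groups for 9 of 10 members (75.7%, 70.1% and 69.0% of genes).

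The promoters of the members are where the loop closes, so the windows that held a clock motif are shown first. RefSeq promoter windows (build GRCr8, 250 bases before to 50 bases after a listed start) were found for all 10 members, 12 windows in total. They were searched on both strands for the E-box CACGTG, the D-box TTACGTAA or TTATGTAA, and the ROR element core TAGGTCA or TGGGTCA. Each motif was found in 1 member: the ROR core 16 bases before the Arntl start, the D-box 192 bases before the Per2 start, and the E-box 191 bases before the second of the listed Nr1d1 starts. Among all 33469 windows, 6.42% held the E-box, 1.01% the D-box and 2209 windows the ROR core, against 2148 with the E-box. Outside the member list, windows were also read for Tef, Bhlhe40, Bhlhe41, Nfil3, Usp2 and Ciart. Nfil3 and Usp2 held none of the motifs, while Tef, Bhlhe40 and Bhlhe41 held 1 E-box each, at 198, 220 and 48 bases before their starts. Ciart, a repressor of BMAL1:CLOCK, held 3 E-boxes, at 93, 35 and 21 bases before its start, and is shown for that number. These matches are letters in a window, and no binding was measured. The 250 bases before each of these starts follow, 5′ to 3′ on the strand of the gene, with the motifs in capitals.
Arntl (Bmal1 in RefSeq), chr1:176766078-176766327, plus strand: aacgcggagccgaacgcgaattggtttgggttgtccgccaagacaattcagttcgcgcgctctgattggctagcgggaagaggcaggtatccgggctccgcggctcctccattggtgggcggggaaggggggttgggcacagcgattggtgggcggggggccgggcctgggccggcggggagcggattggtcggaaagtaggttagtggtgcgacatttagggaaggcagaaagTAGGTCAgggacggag
Per2, chr9:99496994-99497243, minus strand: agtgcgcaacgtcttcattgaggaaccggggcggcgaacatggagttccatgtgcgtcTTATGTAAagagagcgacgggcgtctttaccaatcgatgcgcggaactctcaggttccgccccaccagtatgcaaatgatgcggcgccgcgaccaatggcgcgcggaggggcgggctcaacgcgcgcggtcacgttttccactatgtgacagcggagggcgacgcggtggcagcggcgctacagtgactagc
Nr1d1, second listed start, chr10:84229455-84229704, minus strand: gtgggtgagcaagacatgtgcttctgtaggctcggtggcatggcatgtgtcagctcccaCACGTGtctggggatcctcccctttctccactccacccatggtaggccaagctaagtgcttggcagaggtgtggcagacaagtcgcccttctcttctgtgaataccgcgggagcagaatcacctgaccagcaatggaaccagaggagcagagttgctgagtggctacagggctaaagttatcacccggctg
Ciart, chr2:186112247-186112496, minus strand: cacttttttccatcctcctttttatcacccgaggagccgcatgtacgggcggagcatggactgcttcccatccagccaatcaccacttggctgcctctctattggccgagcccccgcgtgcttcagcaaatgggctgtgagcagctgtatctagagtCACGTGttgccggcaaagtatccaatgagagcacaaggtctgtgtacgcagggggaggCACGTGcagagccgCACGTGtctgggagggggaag

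Arntl (ENSRNOG00000014448), the core activator, stood at 11.2, 0.983 and 13.9 FPKM (a level per length of transcript, scaled for each library) in Sham replicates 1, 2 and 3. It stood at 1.86, 3.75 and 1.63 FPKM in MI rats and at 3.51, 0.544 and 7.38 FPKM in MI + DAPA rats. Sham replicates 1 and 3 were the highest of all 9 rats, and Sham replicate 2 lay below every MI rat, so the groups overlapped. Npas2 (ENSRNOG00000013408), the stand-in for Clock, was also lowest in replicate 2 among the Sham rats, with 4.92, 1.25 and 8.88 FPKM in Sham, 1.01, 2.53 and 0.342 in MI and 1.90, 0.597 and 5.77 in MI + DAPA. Its groups overlapped too, with MI + DAPA replicate 3 above Sham replicate 1. Clock (ENSRNOG00000002175) varied least of the 3 activators, at 6.89, 4.14 and 7.99 FPKM in Sham, 5.42, 5.22 and 4.08 in MI and 4.83, 3.66 and 6.50 in MI + DAPA. In all 9 pairs of rats from the same group, the rat with more Arntl also had more Npas2, and in 8 of the 9 it had more Clock.

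The Per genes, the negative arm of the loop, were placed the other way round within Sham. Per1 (ENSRNOG00000007387) stood at 7.60, 42.2 and 23.9 FPKM in Sham, 26.0, 12.2 and 18.2 in MI and 20.8, 21.2 and 10.9 in MI + DAPA. Per2 (ENSRNOG00000020254) stood at 6.59, 51.4 and 9.54 FPKM in Sham, 20.1, 8.87 and 13.1 in MI and 8.12, 20.7 and 4.13 in MI + DAPA. For Per3 (ENSRNOG00000018413) the values were 2.38, 22.4 and 4.29 FPKM in Sham, 9.83, 5.18 and 8.88 in MI and 4.39, 11.1 and 3.98 in MI + DAPA. Sham replicate 2 was the highest of the 9 rats for each of the 3 Per genes, and Sham replicate 1 was the lowest for Per1 and Per3. Cry2 (ENSRNOG00000007478), the partner of the PER proteins, spanned a narrower range, with 8.59, 16.3 and 8.67 FPKM in Sham, 16.5, 11.5 and 15.7 in MI and 15.6, 15.1 and 11.6 in MI + DAPA. All 4 genes overlapped between Sham and both infarcted groups.

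Nr1d1 (ENSRNOG00000009329), the repressor of Arntl, was the 1 member whose Sham rats did not overlap the others. Such a gap was common among all genes tested, at 54.6% between MI and Sham and 46.5% between MI + DAPA and Sham. It stood at 3.37, 37.1 and 6.01 FPKM in Sham, 86.1, 42.8 and 61.2 in MI and 57.0, 38.0 and 69.7 in MI + DAPA. Its highest Sham rat, replicate 2, lay just under the lowest MI + DAPA rat. Nr1d2 (ENSRNOG00000046912), its close relative, overlapped: 14.1, 60.4 and 19.5 FPKM in Sham, 38.9, 23.3 and 31.9 in MI and 25.9, 31.8 and 28.7 in MI + DAPA. Dbp (ENSRNOG00000021027), the D-box activator and the member with the widest range, stood at 8.25, 225 and 10.4 FPKM in Sham, 191, 112 and 192 in MI and 118, 175 and 85.5 in MI + DAPA. Sham rats held both the lowest and the highest Dbp values of the 9, a 27.3-fold span, and all infarcted rats lay between them.

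**Figure D1:**
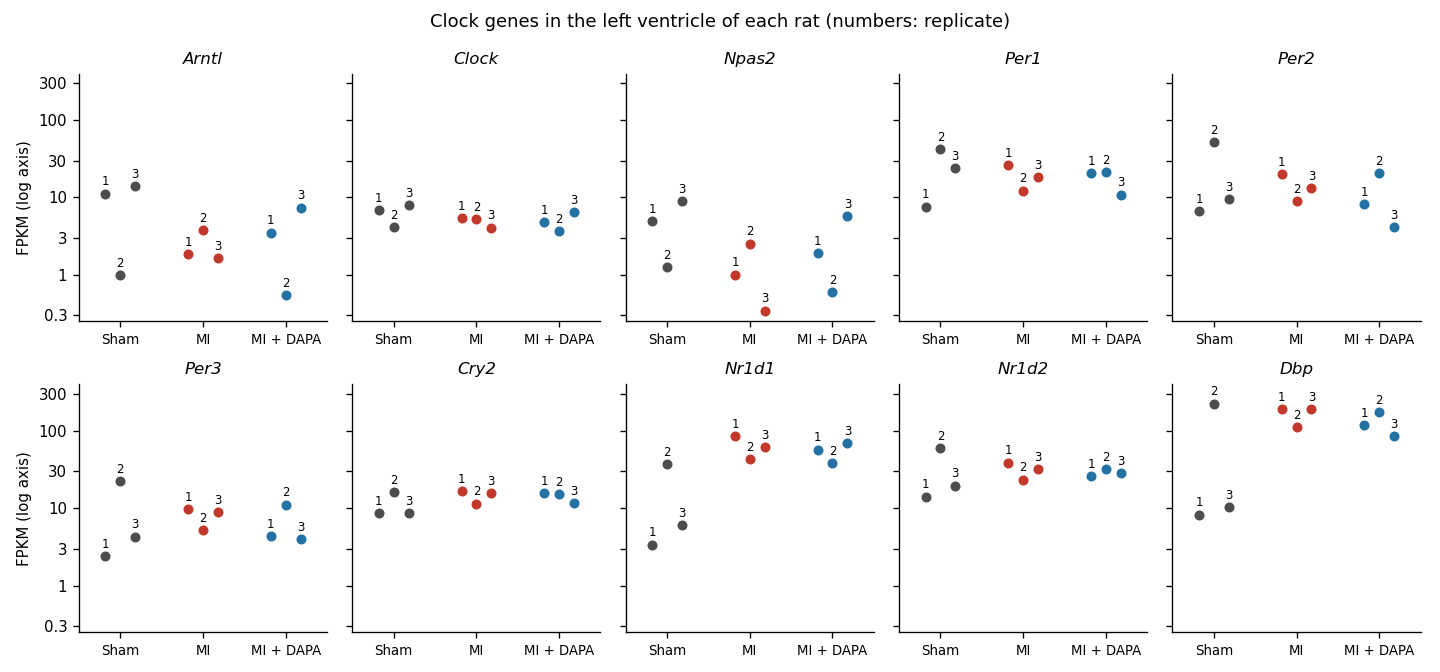
Level of the 10 clock genes in each rat, in FPKM on a log axis, by group (Sham, MI and MI + DAPA, 3 rats each, numbered by replicate). Sham replicate 2 is the highest or the lowest Sham rat in every panel, and Nr1d1 is the only panel in which all Sham rats lie below all others. Of all genes tested, 54.6% did not overlap between MI and Sham and 46.5% between MI + DAPA and Sham.

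Did infarction change the clock genes? Between MI and Sham rats Nr1d1 rose, and no other member passed the test (limma on log2(FPKM + 1), called at unadjusted p under 0.05 and a log2 fold change over 1 in size). Nr1d1 was higher in MI by 2.56 ± 0.75 (log2, SE; limma adjusted p = 0.033). Its mean was 15.5 ± 18.8 FPKM (SD, n = 3) in Sham and 63.4 ± 21.7 in MI. Thus 1 of 10 members was called higher and 0 of 10 lower, where 12.1% of the 13485 genes tested were called higher and 10.3% lower. Groups that did not overlap were seen for 1 of 10 members and for 54.6% of all genes tested. The adjusted p of Nr1d1 ranged from 0.000734 to 0.104 over 13 alternative settings, 6 of them under 0.05.

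Dbp had nearly as large a difference, 2.48 ± 1.14 (log2, SE), but its 95% interval ran from -0.19 to 5.16 (limma adjusted p = 0.12). Npas2 differed by -1.26 ± 0.58 (limma adjusted p = 0.12) and Arntl by -1.11 ± 0.73 (limma adjusted p = 0.27), with intervals from -2.63 to 0.10 and from -2.84 to 0.62. For the other 6 members the differences lay between -0.28 (Clock) and 0.40 (Cry2), and their intervals reached down to -1.81 (Per2) and up to 1.80 (Per3). The standard errors of the members ran from 0.24 to 1.14, against a median of 0.22 over all genes tested. Changes of 2-fold in either direction lay within the intervals of the 3 Per genes.

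Leaving out Sham replicate 2 changed the call of 4 of the 10 members. Without it, 3 members were called higher in MI and 2 lower, where 12.1% and 8.59% of 12932 genes were called. Dbp then differed by 3.97 ± 0.28 (log2, SE; limma adjusted p = 0.0042), Nr1d1 by 3.48 ± 0.34 (limma adjusted p = 0.0045) and Per3 by 1.04 ± 0.32 (limma adjusted p = 0.057). Arntl differed by -2.03 ± 0.30 (limma adjusted p = 0.0081) and Npas2 by -1.85 ± 0.46 (limma adjusted p = 0.031). Per1 and Per2 changed sign, to 0.38 and 0.68, and were not called. Without MI replicate 2, Npas2 was also called lower. Each rat was left out in turn, and nothing in the label of Sham replicate 2 sets it apart. When all libraries were scaled to the sum of all genes, mitochondrial ones included, the median of all genes itself moved to 1.29 and 64.8% of genes were called higher and 1.37% lower, so member changes are read against that median: Nr1d1 stood 2.69 above it, Dbp 2.68 above, Arntl at -1.23 and Npas2 at -1.54 relative to it, though on that scaling 7 members were called higher and 0 lower.

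Against Sham, the MI + DAPA rats gave a like picture with the same control animals. Nr1d1 rose by 2.37 ± 0.72 (log2, SE; limma adjusted p = 0.044). Its mean was 54.9 ± 15.9 FPKM (SD, n = 3) in MI + DAPA. It was the 1 member of 10 called higher, 0 were called lower, and the shares over all 13359 genes tested were 9.54% and 8.16%. The same member alone did not overlap, against 46.5% of all genes. Its adjusted p ranged from 0.00126 to 0.122 over 13 alternatives, 4 of them under 0.05. Dbp differed by 2.08 ± 1.11 (limma adjusted p = 0.20) and Arntl by -0.87 ± 0.86 (limma adjusted p = 0.48). Without Sham replicate 2, Dbp (3.57 ± 0.31, limma adjusted p = 0.0053) and Nr1d1 (3.29 ± 0.32, limma adjusted p = 0.0053) were called higher and Arntl (-1.79 ± 0.65, limma adjusted p = 0.097) lower, Npas2 (-1.28 ± 0.59, limma adjusted p = 0.17) was not called, and Per1, Per2 and Per3 turned positive. Over the 13 alternatives Dbp ran from 1.26 to 3.57 and Arntl from -1.79 to 0.049, so the values without Sham replicate 2 are the largest in size. Scaled to the sum of all genes, the median of all genes moved to 1.00, 49.2% of genes were called higher and 1.13% lower, 4 members were called higher, and Nr1d1 stood 2.43 above the median.

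Did dapagliflozin change the clock genes of infarcted hearts? None of the 10 members passed the test between MI + DAPA and MI rats, in either direction, at an unadjusted p under 0.05 or at an adjusted p under 0.05. Over all 13251 genes tested 0.951% were called higher and 1.11% lower, and 1125 genes had an unadjusted p under 0.05 but 0 an adjusted p under 0.05. Groups overlapped for all 10 members, and did not overlap for 13.8% of all genes. The largest differences were 0.57 ± 0.58 (log2, SE) for Npas2, -0.51 ± 0.53 for Per2 and -0.40 ± 0.33 for Dbp, with limma adjusted p-values from 0.66 upward. The intervals bound what the design could show: from -0.94 to 0.56 for Nr1d1, from -0.58 to 0.39 for Nr1d2, from -0.48 to 0.41 for Cry2 and from -0.50 to 0.50 for Clock, but from -1.19 to 1.66 for Arntl and from -1.78 to 0.76 for Per2. Without MI + DAPA replicate 2, Per2 was called lower, at -1.07 ± 0.39 (limma adjusted p = 0.81), where 0.794% of genes were called lower. Scaled to the sum of all genes, the median of all genes moved to -0.34, 0.359% of genes were called higher and 3.68% lower, and 0 members were called.

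**Figure D2:**
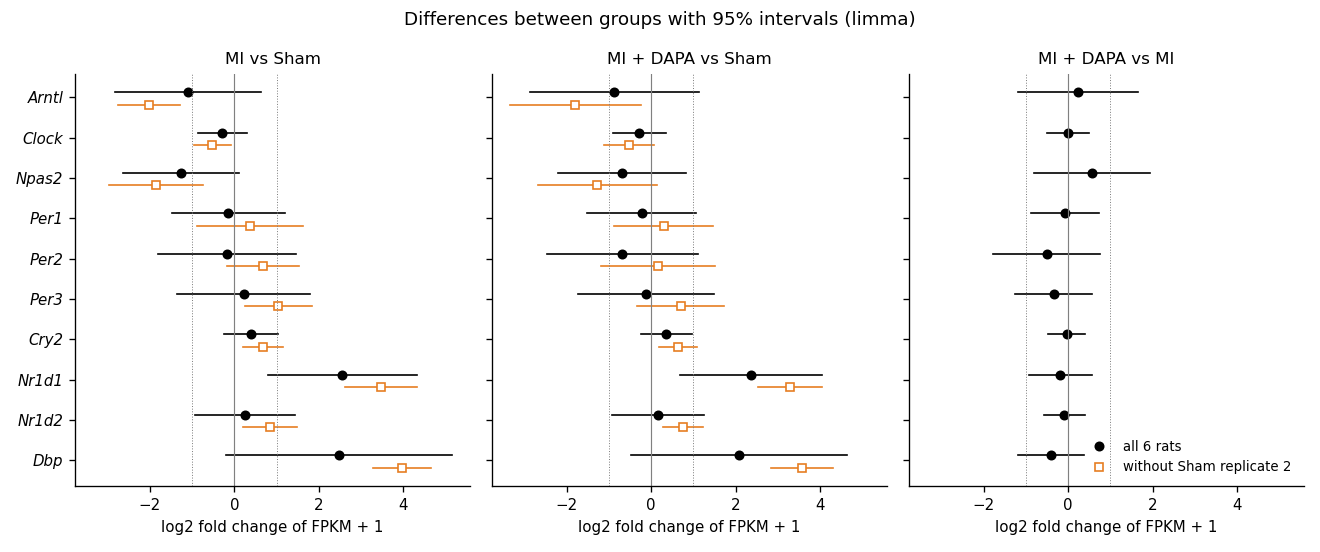
Log2 fold change of FPKM + 1 for the 10 clock genes in the 3 comparisons, with 95% limma intervals. Filled points use all 6 rats and open squares leave out Sham replicate 2, dotted lines mark a 2-fold change, and only Nr1d1 has an interval above 0 in both comparisons with all Sham rats.

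How far the members varied among rats given the same treatment was itself measured. In Sham, 8 of 10 members had a within-group SD of log2(FPKM + 1) above the 95th percentile of the 14157 genes ranked, a bound that 5% of all genes exceed. The median SD was 1.32 for the members and 0.26 for all genes. Dbp was at percentile 99.9, Nr1d1 at 99.4, Arntl at 99.3, Per2 and Per3 at 99.1, Per1 at 98.1, Npas2 at 97.4 and Nr1d2 at 97.2. Clock was at 75.2 and Cry2 at 80.8. In MI the number above the 95th percentile was 0 of 10, with a median SD of 0.45 against 0.21 for all genes, and in MI + DAPA it was 3 of 10 (Arntl, Npas2 and Per2), with 0.51 against 0.25. The wide spread in Sham rested on replicate 2: with it left out, 1 of 10 members was above the 95th percentile in Sham. The median SD of the members (n = 2) was then 0.32, against 0.19 for all genes. With 1 rat left out in turn, the like median ran from 0.22 to 0.56 in MI and from 0.30 to 0.68 in MI + DAPA. Without Sham replicate 1 or 3 the number above the 95th percentile was 7 or 8 of 10. Without MI + DAPA replicate 2 it was 1 of 10 in that group.

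Few genes set Sham replicate 2 apart as widely as these. It lay more than 4-fold (on FPKM + 1) above both other Sham rats for 54 of the 14157 genes, with Per2, Per3, Nr1d1 and Dbp among them, and more than 4-fold below both for 27, with Arntl among them. The other 8 rats stood apart in this way for 6 to 68 genes upward and 6 to 29 downward, and no clock gene was among them. Its mitochondrial share, 61.6%, lay between those of the other Sham rats. Its fibroblast marker sum was 465 FPKM, against 761 and 466 in Sham replicates 1 and 3. Its macrophage sum was 225 FPKM, between their 533 and 171, and its endothelial sum was 1156, below their 1309 and 1401. Its smooth muscle and pericyte marker sum was 520 FPKM, against 1551 and 1343 in Sham replicates 1 and 3. The part of these values in its clock levels was not tested, and its hour of sampling cannot be told apart from other properties of this rat.

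Within each heart, the 2 arms of the loop were set against each other. The clock balance is the mean log2(FPKM + 1) of Arntl, Clock and Npas2 minus that of the 7 other members. It was 0.15, -4.04 and -0.03 in Sham replicates 1, 2 and 3, -3.42, -2.08 and -3.47 in MI rats and -2.43, -3.73 and -1.29 in MI + DAPA rats. The highest 2 values and the lowest of the 9 were all in Sham. Group means were -1.31 ± 2.37 (SD, n = 3) for Sham, -2.99 ± 0.79 for MI and -2.48 ± 1.22 for MI + DAPA, so the differences between groups (-1.68 for MI minus Sham, 0.51 for MI + DAPA minus MI, -1.18 for MI + DAPA minus Sham) were smaller than the Sham SD. Leaving out 1 rat at a time, MI minus Sham ran from -0.96 (without Sham replicate 1) to -3.05 (without Sham replicate 2), and MI + DAPA minus Sham from -0.45 to -2.54 with the same rats left out. MI + DAPA minus MI ran from -0.09 (without MI + DAPA replicate 3), where its sign turned, to 1.13 (without MI + DAPA replicate 2).

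**Figure D3:**
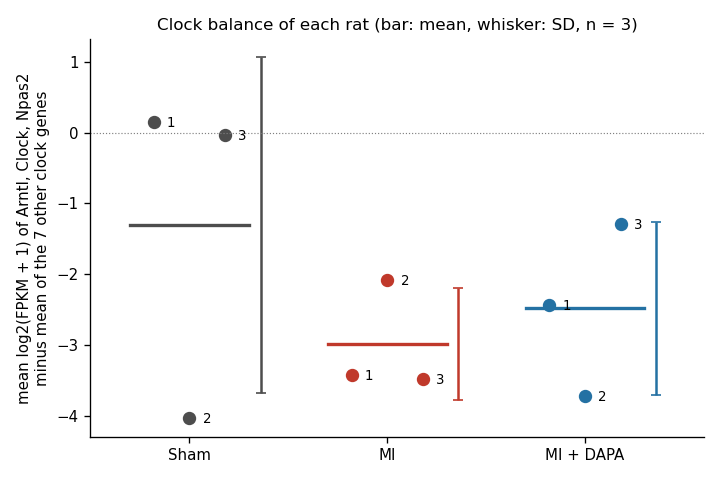
Clock balance (log2 units) of each rat by group, with the group mean as a bar and the SD as a whisker (n = 3, numbered by replicate). Sham replicates 1 and 3 lie near 0, Sham replicate 2 lies lowest of all at -4.04, and the 6 infarcted rats lie between -3.73 and -1.29.

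Pairs of genes from opposite arms mostly ordered the rats of a group in opposite ways. Arntl and Dbp did so in 8 of the 9 pairs of rats from the same group, as did Npas2 and Dbp. Over all 21 gene pairs between the arms, 67.7% of the 189 orderings were opposite. Pairs within the activators agreed in 92.6% of 27 orderings, and pairs within the other 7 members in 83.1% of 189. The ratio of Dbp to Arntl (both in FPKM) was 0.738 and 0.751 in Sham replicates 1 and 3 and 229 in Sham replicate 2, and ran from 29.8 to 117 in MI and from 11.6 to 322 in MI + DAPA. Rats of the same group share neither library nor animal, but the genes of each pair are read from the same libraries, so these shares are descriptions only.

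Nr1d1 departed from this order. It ordered rats like Dbp in only 5 of the 9 pairs and opposite to Arntl in 4. Its ratio to Per2, looked at after the values were seen, was 0.512, 0.722 and 0.630 in Sham, 4.28, 4.83 and 4.67 in MI and 7.02, 1.83 and 16.9 in MI + DAPA, so all 3 Sham rats, replicate 2 included, lay below all infarcted rats. Its ratio to Nr1d2 was 0.240, 0.614 and 0.308 in Sham, from 1.84 to 2.21 in MI, and 2.20, 1.20 and 2.43 in MI + DAPA. Per2 and Nr1d2 overlapped between Sham and the infarcted groups while these ratios did not. Nr1d1 alone already separated Sham from the infarcted rats, so the ratios carry that difference and are no further support. Because the ratios are taken within a library, they do not move with the scaling of the libraries.

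**Figure D4:**
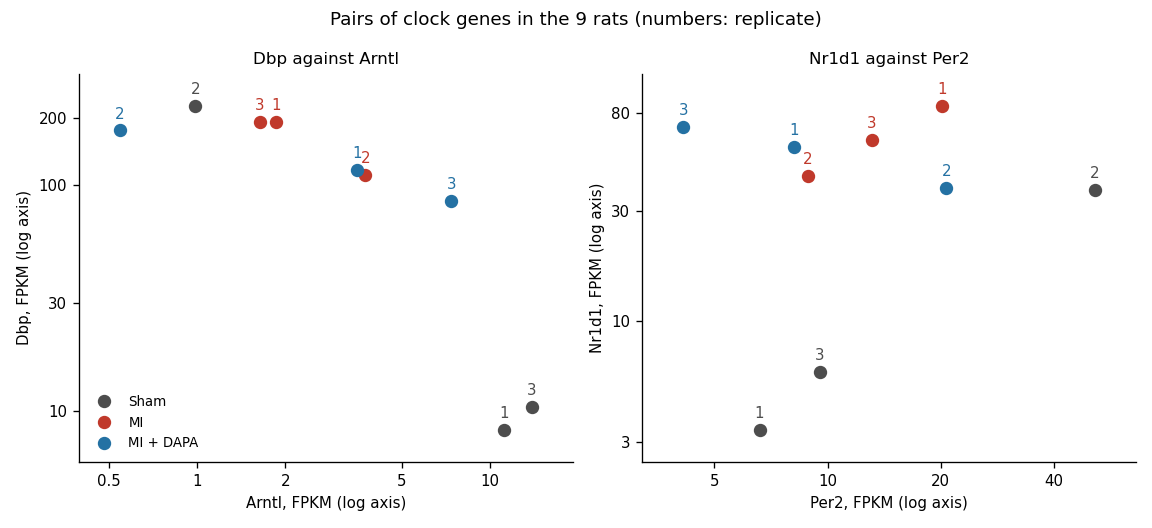
Dbp against Arntl (left) and Nr1d1 against Per2 (right), both in FPKM on log axes, 1 point a rat, coloured by group and numbered by replicate. Sham replicates 1 and 3 pair high Arntl with low Dbp and Sham replicate 2 lies at the other end, while on the right the 3 Sham rats lie below all infarcted rats on the Nr1d1 axis.

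The rest of the network was read from a list of 24 further core clock genes, of which 23 were in the table. Between MI and Sham 17 were tested, 4 were called higher and 1 lower, where 12.1% of all genes tested were called higher and 10.3% lower, and the median log2 fold change was 0.47 against -0.01 for all genes. The count was 6 higher and 1 lower of 17 without Sham replicate 2, where 12.1% and 8.59% of all genes were called. Hlf was among the genes called in both counts, and passed the filter only through the MI rats. Without Sham replicate 2 the same held for Bhlhe41, Ciart and Usp2. Tef, a PAR bZIP factor like Dbp, stood at 7.12, 44.2 and 8.57 FPKM in Sham, 54.9, 29.5 and 48.8 in MI and 32.6, 54.0 and 23.8 in MI + DAPA. Its group difference was 1.53 ± 0.63 (log2, SE; limma adjusted p = 0.095), and Sham replicate 2 again lay among the infarcted rats. The call was lost without any 1 of Sham replicates 1 and 3 and MI replicates 1 and 3 (1.08 to 1.44), and without Sham replicate 2 the difference was 2.32 ± 0.29 (limma adjusted p = 0.0058). In MI + DAPA Tef differed from Sham by 1.24 ± 0.63 (limma adjusted p = 0.18), which was not called with all rats and was 2.02 ± 0.33 without Sham replicate 2 (limma adjusted p = 0.012). Nfil3, the D-box repressor that opposes them, fell by 1.38 on the log2 scale in MI (SE 0.25, limma adjusted p = 0.0061) and by 1.24 in MI + DAPA (SE 0.19, limma adjusted p = 0.0044). Its Sham rats lay together at 8.92, 9.99 and 9.91 FPKM, above all others, which ran from 1.85 to 4.45 FPKM. On the scaling to all genes its MI difference was -0.08, or -1.37 relative to the median of all genes, and it was not called.

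The third PAR bZIP gene, Hlf, had 0 reads in all 3 Sham rats. It stood at 4.08, 2.17 and 2.12 FPKM in MI and 1.37, 1.68 and 0.560 in MI + DAPA, from 9 to 70 reads a rat. Taking 3 reads in a library as the floor, 0.384 FPKM in the shallowest Sham library, the MI mean was at least 7.27-fold higher. Among all genes there were 10 with a value of 0 in all Sham rats and of 1 FPKM or more in all 6 others, and Hlf missed that count by its lowest MI + DAPA value. With any value above 0 in all 6 others, as for Hlf, the count was 154 genes. The like counts for genes at 0 in all MI rats or in all MI + DAPA rats were 3 and 8. Every MI + DAPA rat lay below every MI rat for Hlf, a difference of -0.78 that was not called (limma adjusted p = 0.56).

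Bhlhe40 and Bhlhe41 (DEC1 and DEC2), repressors that compete at E-boxes, rose in both infarcted groups. Bhlhe40 stood at 15.1, 11.9 and 9.80 FPKM in Sham, 49.2, 25.8 and 30.8 in MI and 47.4, 25.8 and 36.9 in MI + DAPA, a difference of 1.42 ± 0.27 (log2, SE) in MI and 1.49 ± 0.25 in MI + DAPA (limma adjusted p = 0.0069 and 0.0065). Bhlhe41 was listed at 0 in Sham replicates 1 and 3 and at 2.53 FPKM in Sham replicate 2, and lay between 8.07 and 18.4 FPKM in the 6 infarcted rats. Its fitted difference was 3.17 ± 0.52 in MI (limma adjusted p = 0.0044) and 2.71 ± 0.47 in MI + DAPA (limma adjusted p = 0.0071). These sizes depend on the pseudocount, since 2 Sham rats are at 0: with 0.1 in place of 1 they were 5.43 and 4.93. They were 3.78 and 3.32 without Sham replicate 2. Bhlhe40 did not set Sham replicate 2 apart, whereas Bhlhe41 did.

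Ciart, whose promoter is shown above, stood at 0.440, 12.8 and 0.392 FPKM in Sham, 5.57, 1.53 and 5.38 in MI and 3.31, 4.91 and 2.20 in MI + DAPA. Usp2, a deubiquitinase with a strong daily rhythm, stood at 0.374, 4.08 and 0.667 FPKM in Sham, 3.31, 1.82 and 3.29 in MI and 2.07, 4.05 and 2.14 in MI + DAPA. Both followed Dbp in placing Sham replicate 2 apart, and neither passed the test in any comparison with all rats. Without Sham replicate 2 both were called higher in MI, Ciart by 1.74 (log2, limma adjusted p = 0.036) and Usp2 with a limma adjusted p of 0.020, and also in MI + DAPA, Ciart by 1.61 (limma adjusted p = 0.019) and Usp2 by 1.27 (limma adjusted p = 0.035). Cry1, the other cryptochrome, overlapped between all groups (1.40 to 2.94 FPKM in Sham, 2.44 to 4.59 in MI and 1.14 to 5.58 in MI + DAPA). Between MI + DAPA and Sham 2 of the 17 listed genes tested were called higher and 1 lower, where 9.54% and 8.16% of all genes were. Without Sham replicate 2 it was 5 and 1 of 17, where 9.41% and 6.98% of all genes were. Bhlhe41, Ciart and Usp2, among these 5, then passed the filter only through the MI + DAPA rats. Between MI + DAPA and MI 0 of 18 were called in either direction, where only 0.951% of all genes were called higher and 1.11% lower.

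**Figure D5:**
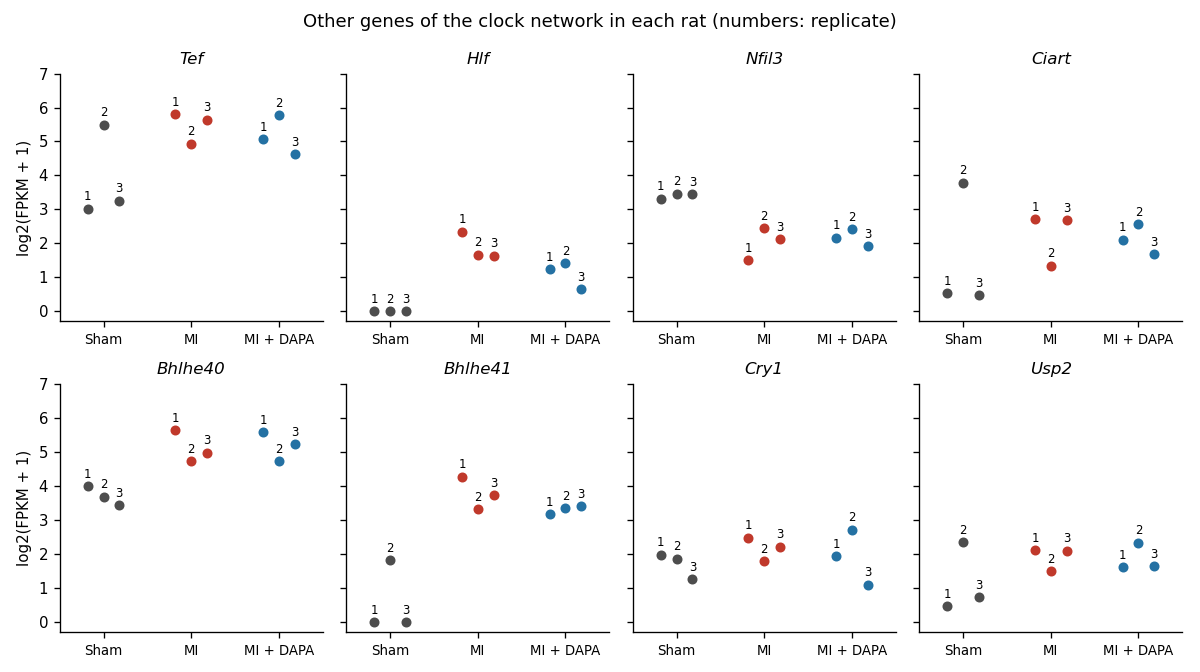
Level of 8 further genes of the clock network in each rat, as log2(FPKM + 1), by group and numbered by replicate. Tef, Ciart and Usp2 place Sham replicate 2 with or above the infarcted rats, while for Hlf, Nfil3 and Bhlhe40 the 3 Sham rats lie together and apart from the others.

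Genes that carry daily rhythm into heart metabolism and excitability were counted next, from a list of 21 with 19 in the table. Between MI and Sham 14 were tested, and 1 was called higher and 3 lower, where 12.1% and 10.3% of all genes were. The count became 3 higher and 1 lower of 13 without Sham replicate 2, where 12.1% and 8.59% of all genes were called. Tsc22d3 (GILZ), which also answers to glucocorticoids, stood at 42.5, 70.8 and 57.0 FPKM in Sham, 272, 83.9 and 165 in MI and 104, 268 and 72.2 in MI + DAPA, and was higher in MI by 1.47 ± 0.41 (log2, SE; limma adjusted p = 0.029). Ucp3, a mitochondrial uncoupling protein, was lower by 1.43 (SE 0.26), from 1.44 to 3.00 FPKM in Sham to at most 0.225 FPKM in MI. At such low levels the added 1 FPKM shrinks the difference, which was -3.33 with a pseudocount of 0.1, and with any 1 Sham rat left out Ucp3 was too low to be tested. It passed the filter only through the Sham rats, so its calls against both infarcted groups are no test of a fall. The potassium channel gene Kcnh2 was also called lower, at 5.85 ± 2.45 FPKM (SD, n = 3) in Sham and 2.04 ± 1.24 in MI (limma adjusted p = 0.040). Kcnh2 was no longer called without Sham replicate 2 (-0.92), without MI replicate 2 (-0.88) or on the scaling to all genes (-0.05). In MI + DAPA against Sham, Ucp3 (-1.29 ± 0.27) and Tsc22d3 (1.17 ± 0.45, limma adjusted p = 0.091) were called. Tsc22d3 was not called without Sham replicate 1 (0.98), Sham replicate 3 (1.19) or MI + DAPA replicate 2 (0.63). Between MI + DAPA and MI 0 of 13 were called, where only 0.951% of all genes were called higher and 1.11% lower.

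By likeness over the 9 rats, each gene centred on its group means, the genes closest to Arntl among 10211 compared were Fbxw11 (Pearson r = 0.993), Rgmb (0.982), Rabgap1 (0.978), Jrk (0.976) and Wls (0.975). Fbxw11, a ubiquitin ligase subunit that acts on PER proteins, is on the core clock list. Those closest to Dbp were Selenoh (0.991), Ska3 (0.987), Pik3ca (0.986), Zfp869 (0.980) and Zcrb1 (0.980), and Tef had 0.970. Their spread was far smaller than that of the member they resembled: the SD of the centred log2 values was 0.12 for Fbxw11 against 0.98 for Arntl, and 0.19 for Selenoh against 1.26 for Dbp. With 9 rats and the placing of 1 Sham rat dominating both profiles, these are descriptions.

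The cell makeup of the samples moved with the groups. The ventricular marker Myl2 was present in every rat, at 31.3 to 283 FPKM. The summed fibroblast markers, 14 of 14 in the table, ran from 465 to 761 FPKM in Sham, 3899 to 7725 in MI and 2450 to 4187 in MI + DAPA. The macrophage sum (13 of 14) ran from 171 to 533, 2137 to 3854 and 1150 to 2150 FPKM, the endothelial sum (10 of 11, with Cldn5 at 0 in every rat) from 1156 to 1401, 334 to 434 and 480 to 503, and the lymphocyte sum (12 of 13) reached 3923 in MI replicate 2 against at most 35.5 in Sham. The cardiomyocyte sum (21 of 22) ran from 9693 to 13333 FPKM in Sham, 4154 to 24764 in MI and 17577 to 34776 in MI + DAPA, and the smooth muscle and pericyte sum (10 of 10) from 520 to 1551, 776 to 1046 and 716 to 1020. Of the adipocyte markers (6 of 6), Fabp4, which cardiac endothelium also makes, ran from 3923 to 5575 FPKM in Sham, 171 to 712 in MI and 550 to 1072 in MI + DAPA. The sum of the 5 others was low and did not overlap between the groups, with at most 0.232 FPKM in Sham, 0.414 to 1.01 in MI and 1.3 to 9.37 in MI + DAPA. The part of cell makeup in the higher Nr1d1, Bhlhe40 and Bhlhe41 and the lower Nfil3 was not tested.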

How the data were processed

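Left ventricular RNA of 9 rats (3 Sham, 3 MI, 3 MI + DAPA) was sequenced as poly(A)-selected libraries. The deposited table holds FPKM per gene and rat. Per the submitters' processing notes the authors used HISAT2 2.0.5, StringTie 1.3.3b and featureCounts 1.5.0-p3, and DESeq2 for their comparisons; the genome build and the role of each tool in the FPKM are not given in the sources used here. All 9 value columns were used, and they hold no results of the authors' own comparisons. Whole reads were recovered from the steps of the FPKM for all 18896 genes with a value in 4 or more rats (tolerance 0.02 reads). The scaling of the FPKM did not follow the total of these reads. For Hlf, 3 reads came to 0.323 FPKM in Sham replicate 1, with 16899773 reads in total. They came to 0.175 FPKM in MI replicate 1, with 15565791. FPKM were tested here as log2(FPKM + 1) with limma 3.58.1 (R 4.3.3, empirical Bayes with trend, 2-sided), each pair of groups in its own fit, over genes at 1 FPKM or more in at least 3 of the 6 rats. A gene was called at unadjusted p under 0.05 and a log2 fold change over 1 in size, the thresholds of the study, with Benjamini-Hochberg adjusted p over all genes tested. Fold changes are on the log2(FPKM + 1) scale, which understates the change of low genes. On simulated data of the MI + DAPA against MI size (13340 genes tested), 99.0% of 200 genes changed 4-fold were called, as were 43 unchanged genes. The simulation gave every gene the same spread setting and not that of the clock genes. Their SE reached 0.60 in that comparison, against a median of 0.20 over all genes. It therefore cannot say how often a 4-fold change of a clock gene would be called. Members, gene lists and tests were chosen with earlier results of these data known. Named genes were the 10 members, the called genes of the other lists (up to 6, or 3 for the glucocorticoid and immediate early lists, by p), a fixed set of 8 clock genes, and the 5 genes closest to Arntl and to Dbp; 2 genes that this rule names are not reported here. P-values measure the spread between rats labelled as biological replicates. Alternatives were another pseudocount, no filter, a single fit over all 9 rats, a fit blocked on replicate number, 2 other scalings of the libraries, no trend, other call rules, and leaving out each rat in turn. The spread and the list counts without single rats were added after seeing the data. Figures were drawn with matplotlib 3.10.9. The deviations of same-numbered rats from their group means had r from -0.428 to 0.236, so the numbers were not taken as pairs. For the clock genes, replicate 2 had the lowest clock balance of its group in Sham (-4.04) and in MI + DAPA (-3.73). In MI it had the highest (-2.08).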

Additional observations from a re-analysis of the deposited data

How the results depend on the processing

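Nr1d1 was called higher in MI and in MI + DAPA than in Sham under every alternative run, but its adjusted p was over 0.05 in 7 of 13 and 9 of 13 of them. Leaving out 1 rat at a time, the clock genes called ranged from 1 to 3 higher and 0 to 2 lower for MI against Sham, 1 to 2 higher and 0 to 1 lower for MI + DAPA against Sham, and 0 to 1 lower for MI + DAPA against MI. The extremes came from Sham replicate 2 and, for the last, MI + DAPA replicate 2. Without Sham replicate 2, 12.1% of all genes were called higher and 8.59% lower in MI, and 9.41% and 6.98% in MI + DAPA. Without MI + DAPA replicate 2, 0.794% were called lower than in MI. Clock genes above the 95th percentile of within-group SD ranged from 1 to 8 in Sham, 0 to 1 in MI and 1 to 4 in MI + DAPA. In lists counted without Sham replicate 2 (a choice made after seeing the data), other core clock genes called higher in MI + DAPA became 5, rhythmic output genes became 3 higher and 1 lower in MI and 2 and 0 in MI + DAPA, glucocorticoid-responsive genes 2 lower in MI and 4 higher in MI + DAPA, and immediate early genes 3 higher in MI + DAPA. With 2 rats left in a group, the fit pools the spread of both groups.

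With all 9 rats in 1 fit, 2 members (Nr1d1 and Dbp) were called higher in MI, where 12.1% of all genes were. With the replicate block, 2 (Nr1d1 and Dbp) were called higher in MI + DAPA than in Sham, where 9.68% of all genes were. The block changed no other call of a member. Outside the members it ended the call of Tef in MI (limma adjusted p = 0.13) and gave one in MI + DAPA against Sham (1.24, limma adjusted p = 0.044). Same-numbered rats are different animals, and their deviations correlated from -0.428 to 0.236. For MI + DAPA against Sham the block cut the SE of Arntl from 0.86 to 0.25. It cut that of Npas2 from 0.65 to 0.21 and that of Per2 from 0.77 to 0.32. For MI against Sham these SEs became 0.75, 0.66 and 0.73 with the block, from 0.73, 0.58 and 0.70. Scaled to the sum of all genes, 7 members were called higher in MI and 4 in MI + DAPA than in Sham, where 64.8% and 49.2% of all genes were. These signs turned on that scaling: in MI against Sham Arntl 0.067, Clock 1.04, Per1 1.33, Per2 1.26 and Sgk1 0.16, in MI + DAPA against Sham Arntl 0.049, Clock 0.72, Npas2 0.19, Per1 0.88, Per2 0.37 and Per3 0.84, and in MI + DAPA against MI Arntl -0.018 and Clock -0.32. Clock in MI + DAPA against MI, at 0.0014 as reported, was -0.0025 with a pseudocount of 0.1 and -0.043 when scaled without the mitochondrial genome.

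Log2 fold changes that changed sign when 1 rat was left out were, for MI against Sham, Per1 (-0.79 to 0.38), Per2 (-0.71 to 0.68), Per3 (-0.35 to 1.04) and Nr1d2 (-0.16 to 0.85). For MI + DAPA against Sham they were Per1 (-0.87 to 0.29), Per2 (-1.24 to 0.17), Per3 (-0.69 to 0.70) and Nr1d2 (-0.26 to 0.75), and for MI + DAPA against MI Arntl (-0.32 to 0.90), Clock (-0.17 to 0.17), Per1 (-0.35 to 0.21), Cry2 (-0.19 to 0.087), Nr1d1 (-0.44 to 0.057) and Nr1d2 (-0.29 to 0.069). Of 793 gene values recomputed, 712 kept their direction and their side of the threshold. Over all genes, the calls between MI + DAPA and MI (126 higher, 147 lower) became 71 and 146 with the replicate block and 52 and 533 when scaled to all genes. The calls between MI and Sham (1634 higher, 1390 lower) became 9040 and 191 on that scaling, and those between MI + DAPA and Sham (1274 and 1090) became 6513 and 149. Sham libraries held fewer reads of nuclear genes, so genes under 3 reads there, such as Hlf, have only a lower bound.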

Other observations

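Genes that answer to glucocorticoids, whose blood level has its own daily rhythm in rats, were counted on a list of 12, all in the table. Between MI and Sham 4 were called higher and 1 lower, where 12.1% and 10.3% of all genes were. Between MI + DAPA and Sham it was 2 higher and 0 lower, where 9.54% and 8.16% were. Between MI + DAPA and MI it was 0 in either direction, where only 0.951% and 1.11% were. Without Sham replicate 2 the counts were 5 and 2 in MI, where 12.1% and 8.59% of all genes were called. They were 4 and 0 in MI + DAPA, where 9.41% and 6.98% were. The metallothionein Mt2A stood at 21.3, 15.0 and 5.35 FPKM in Sham, 254, 103 and 130 in MI and 275, 71.4 and 63.1 in MI + DAPA, higher in MI by 3.53 ± 0.51 (log2, SE; limma adjusted p = 0.0030). Pik3r1, a regulatory subunit of PI3 kinase, rose from 3.15, 5.04 and 3.39 FPKM in Sham to 11.9, 17.4 and 9.56 in MI (limma adjusted p = 0.0048), and the kinase Sgk1 fell by 1.32 (SE 0.20, limma adjusted p = 0.0037), though it was not called on the scaling to the sum of all genes (0.16, or -1.13 relative to the median of all genes). Fkbp5, a chaperone of the glucocorticoid receptor named here after its values were seen, stood at 5.02, 24.5 and 2.95 FPKM in Sham, 77.1, 20.4 and 50.0 in MI and 22.4, 50.6 and 9.06 in MI + DAPA, so that Sham replicate 2 stood apart for this gene too. So it did for Angptl4 (0.557, 10.9 and 0.782 FPKM in Sham), by more than 4-fold on FPKM + 1 from both others. Pdk4 (2.67, 21.4 and 5.99) was highest in Sham replicate 2 by less than that margin. Both are fasting-responsive genes on the rhythmic output list, and were also picked after their values were seen.

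Immediate early genes, which respond within minutes to stimulation or handling of tissue, were counted on a list of 20, all in the table. Between MI and Sham 7 of 20 were called higher and 0 lower, where 12.1% of all genes were called higher. Between MI + DAPA and Sham it was 5 of 19 higher, where 9.54% were. Between MI + DAPA and MI it was 0 of 20, where only 0.951% of all genes were called higher and 1.11% lower. Without Sham replicate 2 the counts were 5 and 3, where 12.1% and 9.41% of all genes were called higher. The growth-response gene Egr2 stood at 0.739, 0.301 and 0.702 FPKM in Sham, 6.05, 3.15 and 4.20 in MI and 11.4, 1.79 and 5.90 in MI + DAPA, a difference of 1.77 ± 0.26 in MI (log2, SE). Under 1 FPKM in every Sham rat, Egr2 passed the filter only through the infarcted rats. Its calls, counted above in both comparisons with Sham, are therefore no test of a rise. Ier3 was higher in MI by 1.44 ± 0.27 (limma adjusted p = 0.0065) and Egr3 by 1.19 ± 0.28 (limma adjusted p = 0.015), the latter not called without Sham replicate 2 (0.94). Sham replicate 2 had the lowest Egr2 and Egr3 of its group, so these genes did not place it with the infarcted rats.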
